A study of Wolfiporia cocos with 12 samples.

Results

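In the brown-rot fungus Wolfiporia cocos, 8 transporter genes were selected on their transcript levels, which stood higher on cellulose or wood than on glucose, or higher on pine than on aspen. They are 8 of 12746 gene models in the deposited table, and 7 carry the InterPro label sugar transporter and 1 the label general substrate transporter. Because transcript levels in all 12 libraries made the choice, every difference of these genes between carbon sources is given as a description, and no p-value is printed for it. Where counts of genes past the call used for all models are given, they describe the chosen genes and support nothing. It had no numerical threshold. Wood against Avicel was not named in the choice, but genes chosen for high values on wood are favoured in it too, since the same libraries enter.

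Strain MD-104 was grown for 5 days in shaken cultures of 250 ml. The only carbon source in basal salts was ground lodgepole pine (Pinus contorta, a softwood) or ground aspen (Populus grandidentata, a hardwood), each at 0.5% w/v, and in defined media it was Avicel (a microcrystalline cellulose) or glucose, with 3 cultures of each. Each culture gave 1 RNA-seq library, and values are RPKM, read counts scaled to gene model length and library size. No header names this unit, which was inferred from the values. Depths read from the spacing of low values were roughly 15.4 to 23.4 (1e6 reads). Replicates correlated at r = 0.959 to 0.985 across tested models, and p-values measure the spread between these cultures. The pine and aspen libraries were run on lane 2 and the Avicel and glucose libraries on lane 1. The base medium, basal salts or defined media, changed with wood too. Lane, base medium and wood cannot be told apart when wood is set against Avicel or glucose.

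Brown-rot fungi take cellulose and hemicellulose out of wood and leave most of the lignin behind in modified form. Their enzymes release sugars outside the hypha, and membrane carriers bring these in. Most fungal sugar carriers belong to the sugar porter family of the major facilitator superfamily, proteins that cross the membrane many times and move hexoses, pentoses or short oligosaccharides, many of them together with a proton. Members of the family differ in substrate and affinity, and an InterPro label does not tell which sugar a given carrier moves. In the budding yeast Saccharomyces cerevisiae, hexose carrier genes are switched according to the glucose level outside the cell.

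Positions are those of the deposited table, and the sources used here do not name its genome build. Scaffold 5 holds 25027 (260781 to 264028, minus strand), 163632 (1755098 to 1757501, minus strand) and 102298 (2741525 to 2744358, plus strand), with 984023 bp between the closest pair. Gene 104972 is on scaffold 8 (1607709 to 1610355, plus), 27321 on scaffold 10 (525775 to 528019, minus), 135536 on scaffold 1 (3872997 to 3875139, minus), 146824 on scaffold 21 (187669 to 189680, plus) and 107257 on scaffold 11 (1492859 to 1495460, plus). Exon and UTR boundaries were not used here. Model 27321 overlaps the next model, 165690 on the opposite strand, by 10 bp, and without a stated strand setting the reads there cannot be told apart.

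The 7 genes labelled sugar transporter were matched to the SUGRTRNSPORT fingerprint PR00171, a set of 5 short conserved motifs along the protein. In 6 of them all 5 motifs were found, and the third motif began 164 to 167 residues after the second. In 102298 the first motif was not listed, and that distance was 188 residues. Among other models with this fingerprint it was 162 to 175 residues in the 11 with 5 motifs. Of the 5 with 4 motifs, 25801 had no value for this distance, and the rest had 158 to 173 residues. Gene 107257 was matched instead by the broader Sugar_tr domain, PF00083, over residues 40 to 490. A signal peptide value was listed for 27321, 163632 and 135536, with probabilities of 0.833, 0.787 and 0.724. Those are 3 of the 8 genes, against 4 of the 28 other models with the same labels and 8.17% of all models.

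Transporter 102298 showed the widest range of the 8 genes. It had 1175, 1684 and 1055 RPKM in the pine libraries, 774, 1085 and 645 in the aspen libraries, 41.6, 62.4 and 49.7 in the Avicel libraries, and 5.396, 4.95 and 4.53 in the glucose libraries. Wood, Avicel and glucose formed separate steps with no overlap, while the pine and aspen libraries overlapped. Its mean was 263-fold higher on pine, 168-fold higher on aspen and 10.3-fold higher on Avicel than on glucose. By mean level it ranked 54 among all 12746 models on pine, 108 on aspen, 2449 on Avicel and 8093 on glucose. RPKM is a share of each library's reads, so fewer hyphae of a kind and less RNA per hypha cannot be told apart.

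Gene 107257, the general substrate transporter, followed the same order of carbon sources. It had 432, 917 and 517 RPKM on pine, 249, 421 and 239.7 on aspen, 22.4, 17.7 and 21.8 on Avicel, and 7.07, 7.22 and 5.04 on glucose. All 4 groups were apart, although the lowest pine library stood only just above the highest aspen library. Its mean was 96.5-fold higher on pine and 47.1-fold higher on aspen than on glucose, and 3.21-fold higher on Avicel. In both 102298 and 107257, replicate 2 was the highest library of its group on pine and again on aspen.

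Gene 25027 had 215, 316 and 312 RPKM on pine, 146, 136 and 184 on aspen, 14.8, 26.2 and 38.3 on Avicel, and 7.55, 7.75 and 4.99 on glucose. The groups did not overlap, and the mean was 41.6-fold higher on pine, 23.0-fold higher on aspen and 3.91-fold higher on Avicel than on glucose. The Avicel libraries spread 2.58-fold, the widest spread of any group of the 8 genes.

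Transporter 104972 was already abundant on glucose. It had 875, 902 and 849 RPKM on pine, 769, 1372 and 1047 on aspen, 534.5, 454 and 378 on Avicel, and 203, 136 and 233 on glucose. Pine and aspen overlapped, and both lay above Avicel, which lay above glucose. The mean was 4.6-fold higher on pine, 5.58-fold higher on aspen and 2.39-fold higher on Avicel than on glucose, and the gene ranked 657 of all models on glucose.

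Gene 27321 had 372, 319.6 and 334 RPKM on pine, 355, 405 and 352 on aspen, 151, 104 and 67.04 on Avicel, and 50.01, 40.8 and 53.3 on glucose. Like 104972 it had its higher mean on aspen, with overlapping wood libraries. The Avicel libraries did not keep 1 order across the members. In 27321 and 104972 Avicel replicate 1 was the highest and replicate 3 the lowest, whereas in 25027 and 163632 replicate 1 was the lowest and replicate 3 the highest.

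Genes 163632 and 135536 stepped up clearly between the woods. Gene 163632 had 132, 130.5 and 88.99 RPKM on pine, 40.65, 50.2 and 39.1 on aspen, 15.5, 23.6 and 25.8 on Avicel, and 13.7, 13.3 and 8.61 on glucose. Gene 135536 had 323, 498 and 333 RPKM on pine, 159, 177 and 162 on aspen, 42.97, 43.6 and 30.4 on Avicel, and 24.8, 29.1 and 26.2 on glucose. In both, pine lay wholly above aspen and aspen wholly above Avicel, while the step between Avicel and glucose was narrow, with the lowest Avicel library of 135536 at 30.4 against the highest glucose library at 29.1.

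Gene 146824 was the weakest transcript of the 8 and did not follow the common order. It had 7.02, 9.25 and 6.902 RPKM on pine, 3.31, 3.18 and 3.03 on aspen, 2.15, 2.18 and 2.65 on Avicel, and 3.08, 3.51 and 3.38 on glucose. Only pine stood apart on the high side, aspen and glucose overlapped, and Avicel was the lowest group. These levels were far above the value of 3 reads in a model of 1 kb, roughly estimated at 0.128 to 0.195 RPKM over the 12 libraries. Its mean was 2.32-fold higher on pine than on glucose, against 0.955-fold on aspen and 0.7-fold on Avicel.

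**Figure D1:**
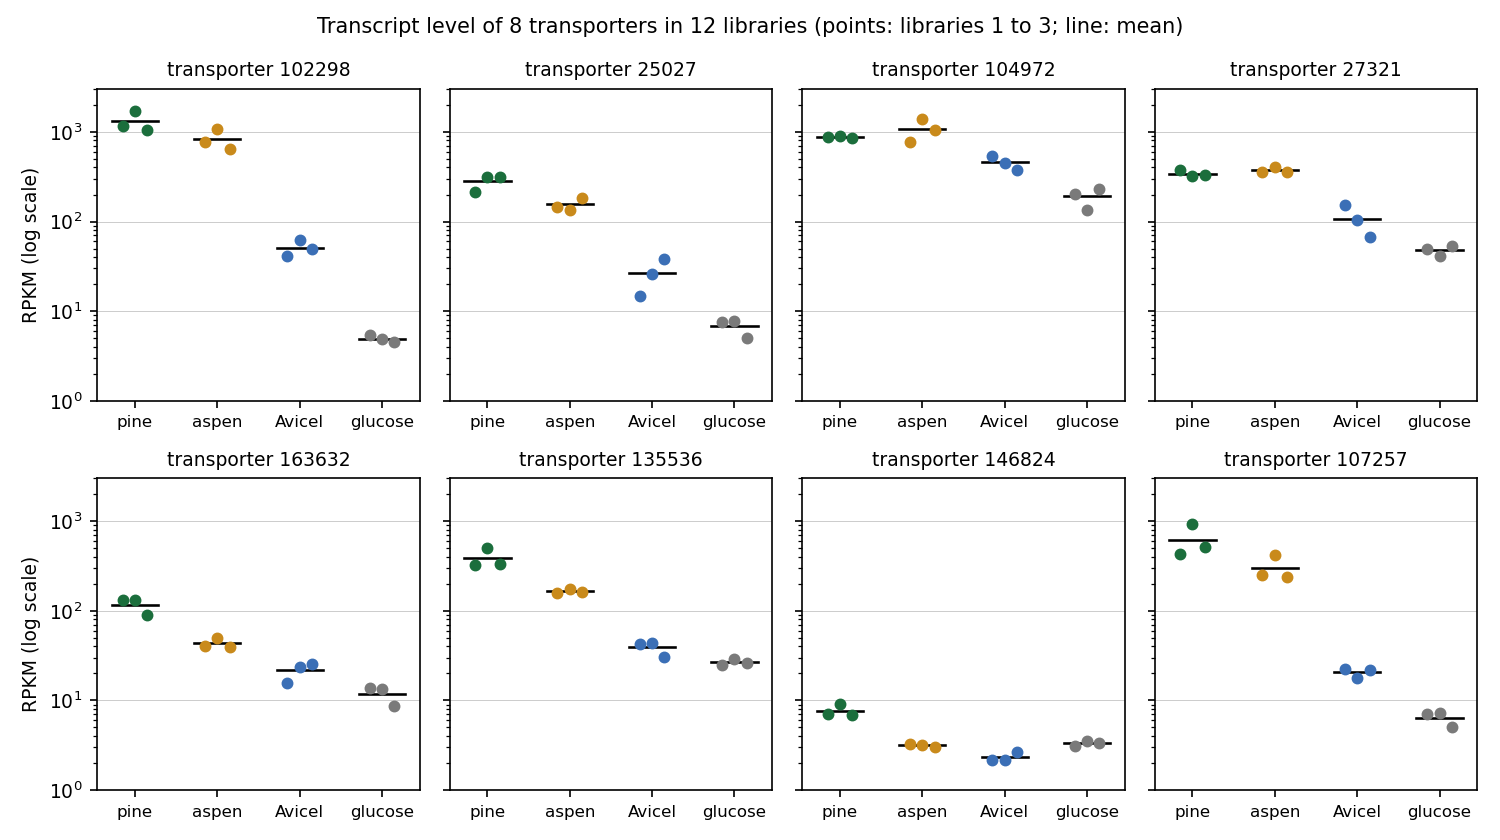
Transcript level of each of the 8 transporters on a log scale of RPKM, with 1 point per library and a line at the mean of 3 libraries, for pine, aspen, Avicel and glucose. The other genes step down through Avicel to glucose, and 146824 stays under 10 RPKM and is raised on pine alone.

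Wood was also set against Avicel, a comparison of ground wood in basal salts with purified cellulose in defined medium, on different lanes. On pine against Avicel 7 of 8 genes were called higher, where 4.56% of 10184 tested models were, and on aspen against Avicel 6 of 8 were, where 3.51% of tested models were. The choice favours such calls, so nothing is read from these counts. A gene was called at a limma adjusted p under 0.05 (Benjamini-Hochberg) with at least a 2-fold change on the scale of log2(RPKM + 1). In all 8 genes the pine libraries and also the aspen libraries lay wholly above the Avicel libraries, a pattern seen in 20.9% and 21.4% of all tested models. The median log2 change of the 8 was 2.83 on pine and 1.96 on aspen, beside 0.04 and 0.05 over all tested models.

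The largest of these changes was in 107257, whose mean on pine was 30.1-fold that on Avicel (log2 change 4.78, SE 0.28). On aspen its log2 change was 3.77 (SE 0.28). The log2 change of transporter 102298 was 4.63 on pine and 3.99 on aspen (SE 0.22 each). That of 25027 was 3.44 on pine and 2.60 on aspen (SE 0.29 each), and that of 135536 was 3.26 and 2.08 (SE 0.18 each). Gene 27321 had log2 changes of 1.73 on pine and 1.85 on aspen, within 1 SE of each other (0.23 each).

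Some changes of the remaining genes sat near the 2-fold line. Gene 163632 had a log2 change of 2.39 on pine (SE 0.23), while its change of 0.99 on aspen was just short of 2-fold. It was called without aspen replicate 1 or 3 or Avicel replicate 2 or 3, with log2 changes of 1.03 to 1.13. Gene 104972 had a log2 change of 1.20 on aspen (SE 0.24), which was under 2-fold without aspen replicate 2 (0.99), and of 0.96 on pine, which passed 2-fold without Avicel replicate 1 (1.08). Gene 146824 had log2 changes of 1.38 on pine and 0.33 on aspen (SE 0.15 each). With a pseudocount of 5 its change on pine was 0.79, under 2-fold.

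**Figure D2:**
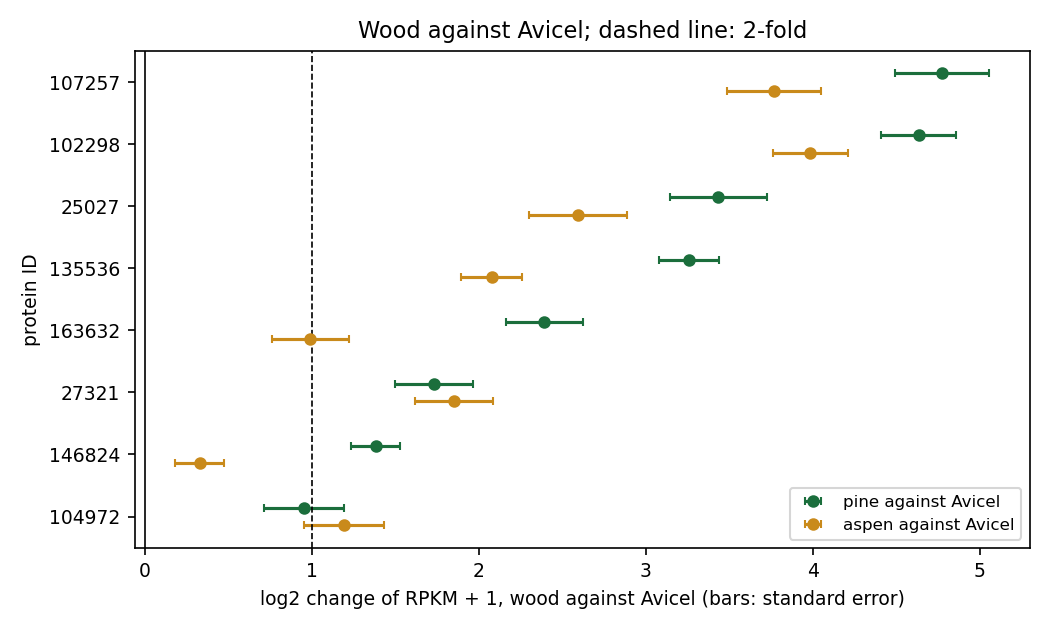
Log2 change of RPKM + 1 for pine against Avicel and aspen against Avicel, with bars for 1 standard error of the limma fit and a dashed line at 2-fold. All 16 values lie above 0, and 3 of them (104972 on pine, 163632 and 146824 on aspen) lie left of the dashed line.

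Against glucose the choice used the contrast itself, so the counts carry no weight of their own. On pine 8 of 8 were called higher, where 5.61% of tested models were. On aspen it was 7 of 8, beside 5.24%, and on Avicel 5 of 8, beside 0.962%. The uncalled gene on aspen was 146824, and those on Avicel were 163632, 135536 and 146824. Without glucose replicate 2 or 3 the Avicel count was 3. The median of all tested models was -0.14 on pine, -0.12 on aspen and -0.18 on Avicel, and the medians of the 8 genes were 3.49, 2.76 and 1.18. All 3 libraries lay above all 3 glucose libraries in 8 of 8 genes on pine, 7 on aspen and 7 on Avicel, beside 15.7%, 16.9% and 4.96% of tested models.

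Between the woods the 8 genes fell on both sides. The ratio of the pine mean to the aspen mean was 2.71 for 163632, 2.43 for 146824, 2.32 for 135536, 2.05 for 107257, 1.81 for 25027 and 1.56 for 102298, and it was 0.923 for 27321 and 0.824 for 104972. In 5 of 8 genes every pine library lay above every aspen library, beside 5.35% of tested models. The 3 genes with the largest ratios were called, where 0.137% of tested models were called higher on pine, and this contrast belongs to the choice. The count was 0 without pine replicate 2 or any 1 aspen library. Pine and aspen were run on the same lane.

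The 8 genes were set beside the 28 other models with the labels sugar transporter, general substrate transporter or sugar transporter, conserved site. Of these, 27 passed the minimum of 1 RPKM in a group mean, and 156712 did not. They are what a choice on these same values left over. On pine against Avicel 6 rose, 1 fell and 20 did not pass, and on aspen against Avicel 4 rose and 23 did not pass. Their median log2 change was 0.35 on pine and 0.47 on aspen. Over all tested models 4.56% were called higher and 4.47% lower on pine against Avicel, and 3.51% higher and 3.72% lower on aspen. On pine 26276 and 137336 ranked directly after 102298 among all 36 models.

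Sugar transporter 26276 (scaffold 7, 2063996 to 2066480) had 802, 1022 and 885 RPKM on pine, 632, 997 and 646 on aspen, 330.2, 265 and 183 on Avicel, and 119, 90.8 and 151 on glucose. It rose by 1.83 on pine and 1.55 on aspen against Avicel (SE 0.26 each, limma adjusted p = 0.000652 and 0.00217). General substrate transporter 137336 (scaffold 4, 2164125 to 2166684) averaged 902 ± 200.4 RPKM on pine, 469.9 ± 16.7 on aspen, 141 ± 41.2 on Avicel and 72.4 ± 30.3 on glucose (SD, n = 3 each). It rose by 2.69 on pine and 1.78 on aspen against Avicel (SE 0.30 each, limma adjusted p = 0.00013 and 0.0026).

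Sugar transporters 17021 and 29361 had nearly equal means on Avicel and glucose. Gene 17021 averaged 67.8 ± 14.5 RPKM on pine, 61.3 ± 3.68 on aspen, 12.7 ± 0.642 on Avicel and 12.8 ± 3.06 on glucose (SD, n = 3 each), and 29361 averaged 228 ± 47.5, 108 ± 19.2, 42.3 ± 6.91 and 42.4 ± 6.22 RPKM on the same media. Against Avicel 17021 rose by 2.31 on pine and 2.19 on aspen (SE 0.18 each), and 29361 by 2.39 and 1.33 (SE 0.19 each), with a limma adjusted p of 0.00101 or less. On Avicel against glucose the log2 change was 0.0049 for 17021 (SE 0.18) and -0.0036 for 29361 (SE 0.19). On pine against aspen the log2 change of 29361 was 1.06 (limma adjusted p = 0.0591), just outside the call. Higher on pine against Avicel were also 25378 (log2 change 1.34, SE 0.15) and 140654 (1.70, SE 0.41). The call of 140654 was lost without pine replicate 2 (limma adjusted p = 0.0538).

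One sugar transporter model went the other way. Gene 164773, labelled by the conserved site, had 8.44, 12.5 and 10.5 RPKM on pine and 9.64, 12.3 and 17.8 on aspen, against 17.6, 38.3 and 28.97 on Avicel and 9.99, 16.3 and 24.1 on glucose. It fell by 1.30 on the log2 scale on pine against Avicel (SE 0.34, limma adjusted p = 0.0191). This call was lost without pine replicate 1, Avicel replicate 2 or Avicel replicate 3 (limma adjusted p of 0.0593 to 0.0712).

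Against glucose, 8 of the 27 were called higher on pine, 7 on aspen and 1 on Avicel, and 0 were called lower. Of all 10184 tested models, 5.61%, 5.24% and 0.962% were called higher on these media, and 631, 668 and 72 models lower. Besides those named, 139839 had 138, 104 and 71.96 RPKM on pine, 94.7, 93.3 and 73.1 on aspen, 16.2, 54.6 and 71.6 on Avicel, and 22.8, 27.2 and 20.96 on glucose, and was called higher on both woods. Gene 138251 was called on pine with a log2 change of 1.08, a call lost without pine replicate 1 (0.95) or glucose replicate 3 (0.88). The single call on Avicel was 26276 (1.09, SE 0.26, limma adjusted p = 0.0447), lost without any 1 glucose library, Avicel replicate 1 or 2, pine replicate 1 or 3, or aspen replicate 1 or 3 (highest limma adjusted p = 0.153). The call of 140654 on aspen against glucose (log2 change 1.24) was lost without any 1 aspen library, glucose replicate 1 or 3, pine replicate 1 or Avicel replicate 2 (highest limma adjusted p = 0.153).

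**Figure D3:**
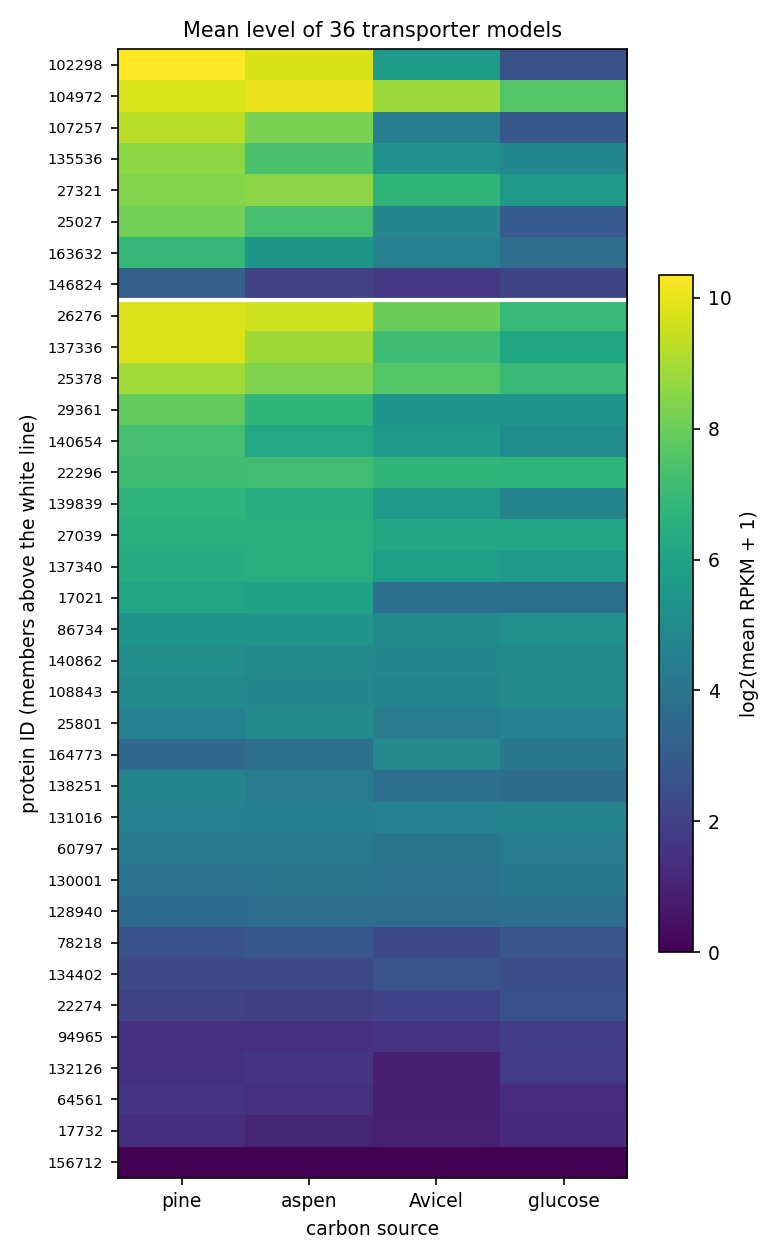
Mean level of 36 transporter models on pine, aspen, Avicel and glucose as log2(mean RPKM + 1), with the 8 members above the white line and 28 other models below it, each block sorted by its highest mean. The brightest cells on wood belong to members 102298 and 104972 and to the other models 26276 and 137336, and 156712 is dark throughout.

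Summed over these 36 models, transporter transcripts amounted to 7331 ± 1159 RPKM on pine, 5392 ± 894 on aspen, 1926 ± 113 on Avicel and 1189.5 ± 29.6 on glucose (SD, n = 3 each). The 8 members held 53.5% ± 1.55 of that sum on pine, 54.3% ± 2.41 on aspen, 37.5% ± 3.61 on Avicel and 25.1% ± 3.79 on glucose. Their choice favours larger sums and shares on wood and Avicel than on glucose, so both are descriptions. The other 28 models summed to 3396 ± 436 RPKM on pine and 2453 ± 274 on aspen, against 1202 ± 42.0 on Avicel and 891 ± 32.2 on glucose. A few models carried much of this sum, with 26276 and 137336 averaging 903 and 902 RPKM on pine and 758 and 470 on aspen. The median log2 change of the 27 tested models against glucose was 0.12 on pine and 0.16 on aspen.

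The make-up of the sum changed with the medium, which for these chosen members is again a description. Transporter 102298 held 17.6% ± 1.68 of it on pine, 15.4% ± 2.08 on aspen, 2.66% ± 0.54 on Avicel and 0.417% ± 0.0333 on glucose. Transporter 104972 held 12.1% ± 1.46 on pine, 19.5% ± 3.00 on aspen, 23.6% ± 2.92 on Avicel and 15.97% ± 3.93 on glucose, and had the highest mean of the 36 on aspen, Avicel and glucose. On pine the highest mean was that of 102298. General substrate transporter 107257 held 8.29% ± 2.14 on pine and 5.53% ± 0.909 on aspen, against 1.08% ± 0.165 on Avicel and 0.542% ± 0.106 on glucose.

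**Figure D4:**
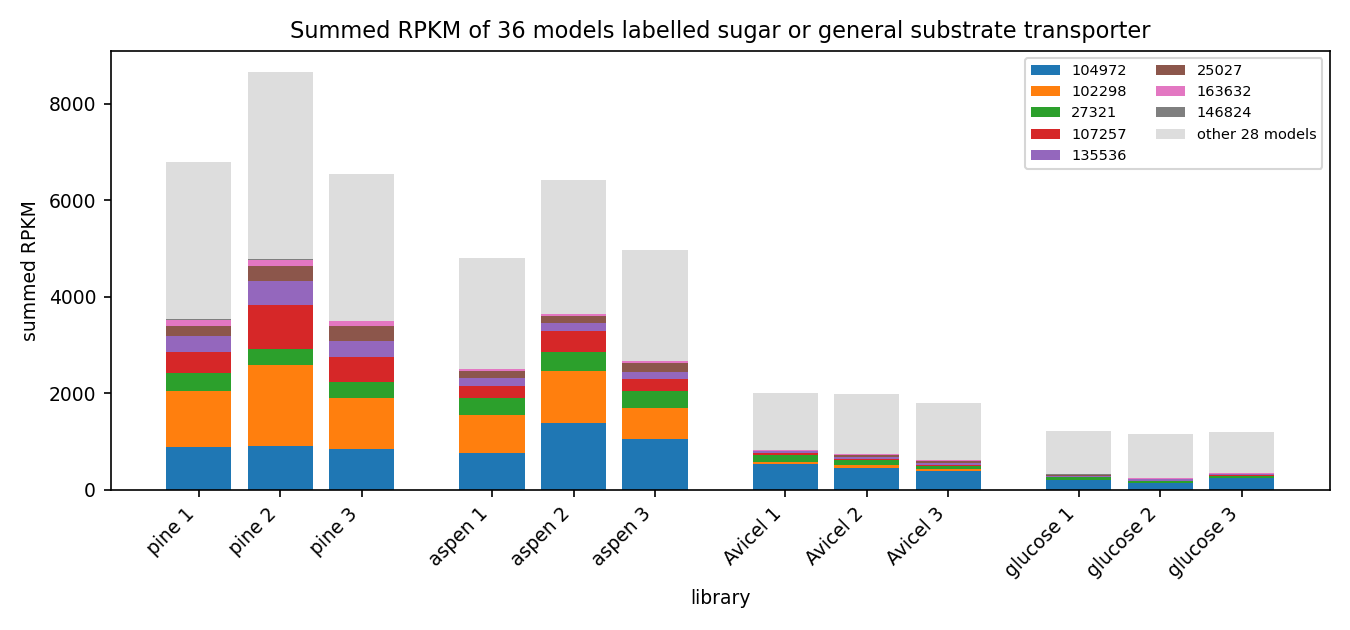
Summed RPKM of 36 transporter models in each of the 12 libraries, stacked by member, with the 28 other models in grey. Every pine and aspen bar (4791 to 8662 RPKM) stands above every Avicel and glucose bar (1158 to 1998 RPKM), and replicate 2 is the tallest on each wood.

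The models next to the members on the scaffolds were also followed. Taking 2 models on each side gave 32 neighbours, of which 25 passed the minimum level. On pine against Avicel 3 of these rose and on aspen against Avicel 2 rose, and 0 fell in either. Over all tested models 4.56% and 3.51% were called higher, and 4.47% and 3.72% lower. For 102298, the neighbours were a caspase-domain peptidase (120708), an unlabelled model (152565) and a pair of UvrD/REP helicases (137952 and 132423), and 120708, 137952 and 132423 were tested and called in none of the 6 comparisons. The nearest, 152565, lay 124 bp away, stayed at or under 1.26 RPKM in all 12 libraries and did not pass the minimum level.

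Downstream of 107257, at a distance of 1837 bp on the same strand, lies 107259, an oligopeptide transporter of the OPT family, whose members carry short peptides and related molecules. It had 9.895, 7.84 and 10.3 RPKM on pine, 3.69, 5.1 and 8.96 on aspen, 1.16, 1.03 and 1.12 on Avicel, and 1.03, 1.06 and 0.837 on glucose. It rose by 2.29 on pine and 1.64 on aspen against Avicel (SE 0.23 each, limma adjusted p = 7.51e-05 and 0.000971), and with a pseudocount of 5 the change on aspen was 0.81. On the other side of 107257, unlabelled 166198 had 3.1, 16.4 and 16.9 RPKM on pine, 1.12, 3.61 and 6.35 on aspen, 0.661, 0.549 and 0.343 on Avicel, and 0.553, 0.706 and 0.678 on glucose. It rose on pine against Avicel (log2 change 2.84, SE 0.53, limma adjusted p = 0.00358).

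Beside 135536 lie the unlabelled models 135537 and 142006, which share their start at 3876426 and overlap, so reads may have been split between them and both values are uncertain. Model 142006 was listed with 1310 to 3301 RPKM on pine and 1474 to 3324 on aspen, against 149 to 1065 on Avicel and 39.5 to 122 on glucose. Its rises on wood against Avicel (2.45 on pine, 2.55 on aspen, SE 0.67 each) were lost without Avicel replicate 2 or 3, without pine replicate 2 or aspen replicate 2, and with no filter on low values. Upstream of 146824, 4460 bp away on the same strand, stands a second sugar transporter, 128940. It averaged 11.3 ± 2.3 RPKM on pine, 11.98 ± 2.09 on aspen, 12.1 ± 2.61 on Avicel and 12.9 ± 1.2 on glucose (SD, n = 3 each), and was called in none of the 6 comparisons.

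For each member the 3 models with the most similar profile were taken by Pearson's r of log2(RPKM + 1). Models of the transporter list and those labelled MFS general substrate transporter were left out of this ranking. The 12 points of each r are 4 media of 3 libraries on 2 lanes, so r mainly follows the steps between media and is given as a description. Closest to 102298 were polysaccharide deacetylase 31035 (r = 0.994), of a family that removes acetyl groups from sugar polymers, major facilitator 127030 (r = 0.991) and unlabelled 143324 (r = 0.989). Model 31035 averaged 162 RPKM on pine, 147 on aspen, 18.1 on Avicel and 3.5 on glucose. Closest to 107257 were 143324 (r = 0.99), GH28 model 128405 (r = 0.9895), a family of polygalacturonases that cut pectin, and cytochrome b5 140500 (r = 0.989). Model 128405 averaged 142 RPKM on pine, 71.4 on aspen, 9.08 on Avicel and 2.63 on glucose.

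Gene 25027 was most like major facilitator 106119 (r = 0.9898), cytochrome P450 22844 (r = 0.987) and 140500 (r = 0.982). For 104972 the nearest were 166519, labelled as a fungal transcriptional regulator (r = 0.979), and the unlabelled 164531 and 151354 (r = 0.977 and 0.971). Model 166519 averaged 210.3 RPKM on pine, 274 on aspen, 68.9 on Avicel and 14.1 on glucose, with the higher mean on aspen as in 104972. For 27321 they were 127030 (r = 0.987), unlabelled 29253 (r = 0.986) and 25621 (r = 0.985), a receptor of the STE3 pheromone type.

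For 163632 the nearest models were 141280, labelled mandelate racemase/muconate lactonizing enzyme (r = 0.985), unlabelled 138209 (r = 0.9803) and carboxylesterase 166132 (r = 0.978). Model 141280 averaged 140.2 RPKM on pine, 51.6 on aspen, 24.9 on Avicel and 10.4 on glucose. For 135536 they were acyltransferase 27787 (r = 0.984), major facilitator 139522 (r = 0.982) and unlabelled 76925 (r = 0.982). For 146824 the leading model was a second GH28, 92023 (r = 0.9699), with 14.01 RPKM on pine, 3.94 on aspen, 3.21 on Avicel and 3.96 on glucose, followed by cytochrome P450 135540 (r = 0.942) and 135445, labelled dimeric alpha-beta barrel (r = 0.9102).

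Enzymes of early sugar use were followed through 12 models chosen by label, all of which were tested. The labels were hexokinase, FGGY carbohydrate kinase, thermoresistant glucokinase, galactokinase, mevalonate and galactokinase, aldose 1-epimerase, phosphoglucose isomerase and galactose-1-phosphate uridyl transferase. Not all of these act on a free sugar. Of these 12, 1 rose on pine against Avicel and 0 on aspen against Avicel, beside 4.56% and 3.51% of all tested models. Their median log2 changes were 0.39 and 0.18. By limma 6 and 5 of the 12 had an unadjusted p under 0.05, beside 3433 and 3230 of all 10184 tested models. Against glucose 2 rose on each of pine, aspen and Avicel, beside 5.61%, 5.24% and 0.962% of all tested models. The same pair, 77095 and 140266, was called each time. Both belong to the FGGY kinases, a family that phosphorylates substrates such as xylulose, ribulose or glycerol.

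Kinase 77095 had 231, 259.7 and 281 RPKM on pine, 189, 160.2 and 203 on aspen, 135, 76.2 and 82.4 on Avicel, and 49.7, 44.9 and 26.5 on glucose. It rose by 2.69 on pine, 2.20 on aspen and 1.26 on Avicel against glucose (SE 0.25 each), and by 1.43 on pine against Avicel (limma adjusted p = 0.00249). Kinase 140266 had 28.7, 30.2 and 22.2 RPKM on pine, 27.8, 24.5 and 21.9 on aspen, 24.02, 16.8 and 10.5 on Avicel, and 7.99, 6.78 and 6.2 on glucose. It rose by 1.81, 1.69 and 1.12 on pine, aspen and Avicel against glucose (SE 0.24 each). Both calls on Avicel were lost without Avicel replicate 1 or without glucose replicate 2 or 3, and that of 140266 also without Avicel replicate 2 or glucose replicate 1 (highest limma adjusted p = 0.112). The third FGGY model, 24835, averaged 124 ± 29.7 RPKM on pine, 132 ± 5.93 on aspen, 168 ± 40.2 on Avicel and 177 ± 23.8 on glucose (SD, n = 3 each), with no call.

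Protein values from mass spectrometry were listed for 704 models. Among the 36 transporter models only 104972 had any. Its emPAI score, which rises with the number of peptides seen for a protein, was 0.161 on pine and 0.142 on aspen, from 3 and 2 peptides, and it was listed at 0 on Avicel and on glucose. Each medium had 1 value, so no error can be given. Transcripts of 104972 were at 378 RPKM or more on Avicel and at 136 RPKM or more on glucose, where the protein was listed at 0.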

How the data were processed

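The 12 libraries, 3 per carbon source, were grouped by their titles. Values of each library were deposited by the authors and taken as RPKM, a unit no header names and which was inferred from the values. Per the submitters' processing notes CASAVA 1.8.2 was used, while the sources used here do not name the aligner, counting tool, strand setting or genome build. The authors also deposited an emPAI score and a peptide count per protein and medium, and a signal peptide probability as a fraction per model. The emPAI columns have equal sums (459), so they had been scaled.

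Depth, read from the spacing of low values, was 15.4 to 23.4 (in units of 1e6 reads) if RPKM was scaled to all reads, with 17.4 to 22.5 for pine, 15.4 to 23.4 for aspen, 15.4 to 19.7 for Avicel and 17.4 to 21.4 for glucose. Of 268 models whose low values shared a common step, 72 lay at the most frequent value of step times model length, so these depths are rough. Model length was taken from start to end of the model. The limit of 3 reads rests on these depths and covers counting error only. No 2 libraries were identical. The labels call the replicates triplicate cultures.

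All 4 groups were fitted together in limma 3.58.1 (R 4.3.3) on log2(RPKM + 1) with an intensity trend, for the 10184 models whose mean reached 1 RPKM in any group. A call needed a Benjamini-Hochberg adjusted p under 0.05 over all 10184 models and a 2-fold change. The fit was checked on simulated data. Fold changes on this scale understate changes of low genes. Named are the 8 members, other transporters and sugar kinases that were called, 2 neighbours per side and 3 models of most similar profile. Calls of the 8 members come from the same fit and are descriptions, since all 12 libraries entered their choice. Members and lists were chosen with earlier results of these data known. Alternatives were 2 other pseudocounts, no filter, median centring, quantile normalization, 2-group fits, a replicate term, no fold threshold and leaving out each library.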

Additional observations from a re-analysis of the deposited data

How the results depend on the processing

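Every wood library of the 8 members lay above every Avicel library. Leaving out a library, or another pseudocount, filter or fold threshold, could therefore not reverse a direction. With that limit, the 16 log2 changes of the members on wood against Avicel kept their direction in all 20 alternatives each. Of these 320 values, 309 stayed on the same side of the call, 2 lost it and 9 gained it, all in 104972, 146824 and 163632. The called members numbered 5 to 7 on aspen against Avicel and 6 to 8 on pine against Avicel. On pine against aspen the number was 1 with no filter, 0 with only the 2 groups compared, and 0 to 3 with 1 library left out. On Avicel against glucose it was 3 to 5 with 1 library left out. The cause was not tested. Of 1220 values for the other named models and neighbours 62 lost their call and 0 reversed. Deviations of same-numbered libraries correlated at -0.42 to 0.44 across genes (median -0.005), beside -0.42 to 0.33 (median -0.038) for other pairs. These ranges overlap, so no pairing was assumed, and they do not settle whether replicate numbers pair the libraries. With the replicate block 5 members were called on Avicel against glucose and 3 on pine against aspen, as without it, and 26276 lost its call on Avicel against glucose (adjusted p = 0.0713). Over all models on wood against Avicel, called models with median centring were 408 higher and 520 lower on pine and 311 higher and 434 lower on aspen, beside 464 and 455 and 357 and 379 as deposited. With no fold threshold they were 1185 and 795 on pine and 1025 and 636 on aspen.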

Other observations

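A further 22 models carry the label MFS general substrate transporter, which names a fold of the major facilitator superfamily rather than a sugar carrier, and 20 of them were tested. On pine against Avicel 3 rose and 1 fell, and on aspen against Avicel 2 rose and 1 fell. Over all tested models 4.56% rose and 4.47% fell on pine, and 3.51% rose and 3.72% fell on aspen. Model 82841 had 660.1, 1600.4 and 521 RPKM on pine, 436, 607 and 347 on aspen, 76.0, 119 and 123 on Avicel, and 93.9, 158 and 54.3 on glucose. Like 102298, 107257, 104972, 135536 and several other transporters, it was highest in replicate 2 of each wood. It rose by 2.97 on pine and 2.11 on aspen against Avicel (SE 0.44 each, limma adjusted p = 0.000929 and 0.00817). Model 167613 fell, with 18.96, 12.05 and 43.5 RPKM on pine and 19.2, 16.03 and 24.9 on aspen, against 103, 183 and 155 on Avicel and 221, 206 and 207 on glucose. Its log2 change against Avicel was -2.67 on pine and -2.79 on aspen (SE 0.36 each, limma adjusted p = 0.000533 and 0.000568), and its log2 change against glucose was -3.23 and -3.36.

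Hexokinases, which phosphorylate glucose after uptake, were called in none of the 6 comparisons by limma. Model 28847 averaged 152 ± 39.2 RPKM on pine, 148 ± 5.01 on aspen, 117 ± 32.3 on Avicel and 125 ± 9.14 on glucose, and 137481 averaged 18.4 ± 0.528, 16.5 ± 1.7, 18.3 ± 2.12 and 18.3 ± 3.13 RPKM on the same media (SD, n = 3 each). The emPAI score of 28847 was 0.109 on pine, 0.325 on aspen, 0.301 on Avicel and 0.197 on glucose, from 2, 6, 3 and 3 peptides, with 1 value per medium and no error.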
